A study of Mus musculus with 8 samples.

Results

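The genes described here are the cytokine gene Ifng and 7 genes that surround it in type 1 immunity: Ifngr1 and Ifngr2, which encode the receptor for its product, Il12rb1 and Il12rb2, the chains of the IL-12 receptor, Il18r1 and Il18rap, the chains of the IL-18 receptor, and Stat4, the transcription factor activated by the IL-12 receptor. Their probe sets were found by symbol, for a list of genes drawn up with earlier results of these data known. All 8 were measured and passed the filter on low values, out of 12520 genes tested, through 10 of 45037 probe sets. Ifngr2 and Il18rap had 2 probe sets each and the others 1. The probe sets used were 1425947_at for Ifng, 1448167_at for Ifngr1, 1423557_at for Ifngr2, 1418166_at for Il12rb1, 1421623_at for Il12rb2, 1421628_at for Il18r1, 1456545_at for Il18rap and 1448713_at for Stat4.

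Interferon gamma is the cytokine by which CD8 T cells and natural killer cells activate macrophages and raise antigen presentation in the tissue around them. In a T cell its gene is switched on through the T cell receptor. It is driven further by IL-12 and IL-18, which dendritic cells and macrophages release. IL-12 acts through the kinases Jak2 and Tyk2 on Stat4, and IL-18 through Myd88 and IRAK kinases. Interferon gamma itself acts through Ifngr1, which binds it, and Ifngr2, which completes the signalling receptor.

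CD8 T cells from the spleens of C57BL/6 mice, positively selected on magnetic beads, spent 18 h in culture with dendritic cells grown from bone marrow. The ratio was 10 T cells to each dendritic cell, and the dendritic cells were afterwards taken out through CD11c. Wild-type cells met dendritic cells without added peptide (WT non-pulsed) or dendritic cells loaded with the ovalbumin peptide N4 (WT N4). Cells lacking PKCθ, a kinase between the T cell receptor and NF-kB (PKCθ KO N4), and cells without p50 and cRel, which are NF-kB subunits (p50 cRel DKO N4), met N4-loaded dendritic cells, and no knockout culture without peptide was analysed here. Each of the 4 groups had 2 arrays. The labels give neither the antigen receptor of the T cells nor the age and sex of the mice, nor whether a knockout was confined to T cells, so the knockout effects cover whatever the mice had lost. Separate mice or cultures for the 2 arrays of a group are not stated either, so that p-values measure the spread between these arrays, which may be technical. Each array read together all cells left after the removal through CD11c. Fewer cells of a type and less RNA per cell therefore cannot be told apart.

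The arrays had a median signal between 33.6 and 70.3 and a common 2% trimmed mean of 500, and their number limits the precision. Rel, which encodes cRel, read 56.8 and 44.6 on the double knockout arrays against 887 and 722 on the WT N4 arrays, a difference of -3.62 on the log2 scale (limma adjusted p = 0.000984). Prkcq, which encodes PKCθ, read 2036 and 1707 on the PKCθ KO arrays against 3393 and 2588 on the WT N4 arrays (difference -0.66, limma adjusted p = 1.00). Where its probe set lies relative to the deletion is not known here, and the gene of p50 was not analysed here. T cell markers were high on all arrays, with Cd3e at 3674 to 5271, Cd8a at 2264 to 9987 and Cd8b1 at 5568 to 10280. The summed signal of 12 B cell markers (of 13 listed) was 40135 and 58044 on the non-pulsed arrays and between 836 and 4456 on the 6 peptide arrays, and that of 17 dendritic cell and macrophage markers (all of 17) 67271 to 74655 against 9305 to 15350. Neutrophil markers (7 of 10) summed to 23938 and 26303 against 306 to 878. Eif2s3y, on the Y chromosome, was at 10.65 to 11.20 (log2) in the 4 wild-type samples against 5.42 to 6.73 in the 4 knockout samples, so genotype and sex-linked expression cannot be told apart. The X-linked Xist was at 12.27 to 12.57 in the knockout samples, at 5.18 and 6.65 with WT N4 and at 6.05 and 11.84 in the first and second non-pulsed sample.

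RefSeq (GRCm38.p6) promoter windows were matched for 7 of the 8 genes, with 10 windows in all, and each was read over the 250 bases before a transcription start. The 4 shown hold the matches, on either strand, to the 4 motifs searched: the STAT motif TTCNNNGAA, the NF-kB consensus, the AP-1 motif TGACTCA and the T-box motif AGGTGTGA. They are shown because Stat4 is the factor downstream of IL-12, and p50 and cRel are NF-kB subunits. Capitals mark the STAT motif in the windows of Ifng (chr10:118440796-118441045, plus strand), Il12rb2 (chr6:67376189-67376438, minus strand) and Il18r1 (chr1:40465756-40466005, plus strand), and the NF-kB consensus in that of Ifngr2 (chr16:91546809-91547058, plus strand).
Ifng: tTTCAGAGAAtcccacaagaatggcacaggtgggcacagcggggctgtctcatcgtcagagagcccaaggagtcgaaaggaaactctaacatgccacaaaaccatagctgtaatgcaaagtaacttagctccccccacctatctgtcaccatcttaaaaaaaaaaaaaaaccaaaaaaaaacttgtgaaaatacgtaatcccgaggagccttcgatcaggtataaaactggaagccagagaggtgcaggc
Il12rb2: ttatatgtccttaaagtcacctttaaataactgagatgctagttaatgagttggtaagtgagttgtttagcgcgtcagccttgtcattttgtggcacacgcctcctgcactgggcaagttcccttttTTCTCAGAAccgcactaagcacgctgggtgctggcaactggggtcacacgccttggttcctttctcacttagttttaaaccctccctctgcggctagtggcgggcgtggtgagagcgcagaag
Il18r1: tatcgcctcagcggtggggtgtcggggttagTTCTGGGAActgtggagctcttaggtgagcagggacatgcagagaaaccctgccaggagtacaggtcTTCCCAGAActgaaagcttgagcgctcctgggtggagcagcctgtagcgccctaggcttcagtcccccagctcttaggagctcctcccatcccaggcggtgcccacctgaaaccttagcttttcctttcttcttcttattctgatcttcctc
Ifngr2: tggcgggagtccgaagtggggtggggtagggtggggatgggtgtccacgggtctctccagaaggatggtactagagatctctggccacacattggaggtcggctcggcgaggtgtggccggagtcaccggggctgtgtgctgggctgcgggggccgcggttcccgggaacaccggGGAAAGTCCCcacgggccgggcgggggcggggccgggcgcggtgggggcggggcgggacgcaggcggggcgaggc

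The STAT motif was in 3 of the 10 windows and in 7.02% of all 32851 windows of this length. It began 249 bases before the start of Ifng, 123 before that of Il12rb2, and 219 and 152 before 1 of the 3 starts of Il18r1. The NF-kB consensus was in 1 of the 10 windows and in 3.90% of all, and in Ifngr2 began 75 bases before the start. The AP-1 and T-box motifs were in none of the 10 windows and in 4.46% and 1.12% of all. Of the genes with a STAT motif, Ifng and Il12rb2 rose with peptide in wild-type cells and Il18r1 fell (values below). These are letter matches within the windows and were not tested for binding.

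Ifng, the ligand, read 31.9 and 205.8 on the WT non-pulsed arrays, 11141 and 5576 on the WT N4 arrays, 14360 and 7242 on the PKCθ KO arrays and 3554 and 3706 on the p50 cRel DKO arrays. All peptide arrays stood far above the non-pulsed ones, and the double knockout arrays were below both WT N4 arrays and close to each other. In rank among all probe sets of its array, Ifng went from the 41.7 and 64.4 percentiles on the non-pulsed arrays to between the 94.4 and 99.4 percentiles on the peptide arrays. With N4, wild-type cells had 6.26 more on the log2 scale (SE 0.64, 95% interval 4.79 to 7.73, 76.6-fold, limma adjusted p = 0.00016), the third largest rise among 12520 genes. Differences and folds are on the scale log2(signal + 16), which understates the change of low genes. The non-pulsed arrays differed widely (6.69 ± 1.56, SD, n = 2), and the rise was 5.15 to 7.37 as single arrays were left out.

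The Ifng level of PKCθ KO cells did not differ from that of WT N4 cells beyond the spread between arrays (0.37 higher, 95% interval -1.09 to 1.84, limma adjusted p = 1.00). In the double knockout it was 1.12 lower, a 2.17-fold difference (SE 0.64, 95% interval -2.58 to 0.35, limma adjusted p = 1.00), and the groups did not overlap. That interval holds both no difference and a difference larger than 4-fold. Against the PKCθ KO the double knockout was 1.49 lower (95% interval -2.95 to -0.02, limma adjusted p = 0.681). The order of the means was PKCθ KO, WT N4, double knockout, then non-pulsed, and only the last step passed the test (limma adjusted p = 0.000429).

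**Figure D1:**
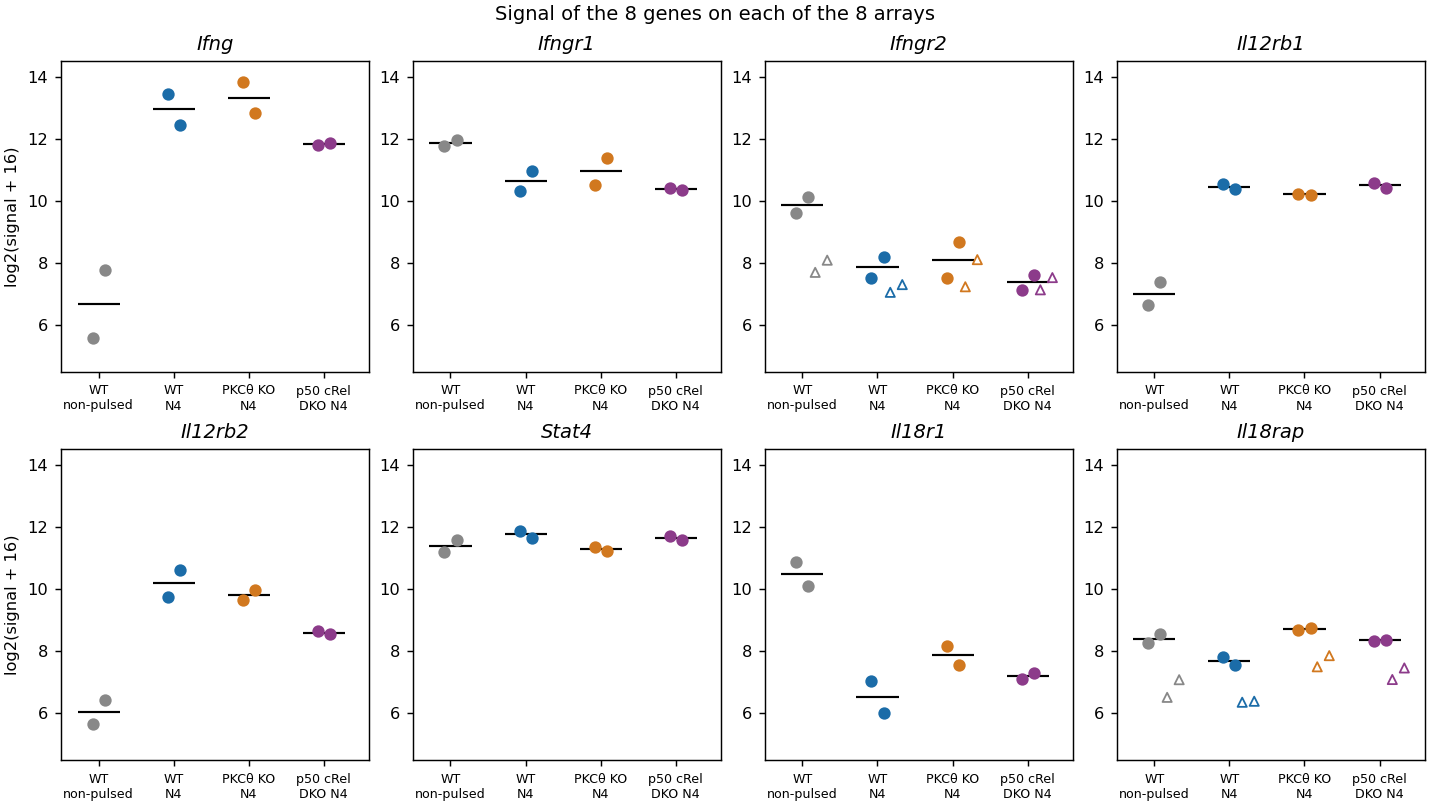
Level of each of the 8 genes on each array, as log2(signal + 16), with 1 panel per gene, the 4 groups on the x axis, filled points for arrays, lines for group means and open triangles for the further probe set of Ifngr2 and Il18rap. By the filled points, Ifng, Il12rb1 and Il12rb2 are higher on all 6 peptide arrays than on the non-pulsed arrays, and Ifngr1, Ifngr2 and Il18r1 are lower. The further Ifngr2 probe set reads 260 on the second PKCθ KO array, above the non-pulsed arrays (192 and 257).

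The receptor for interferon gamma moved the other way from its ligand. Ifngr1, the ligand-binding chain, read 3442 and 3946 on the non-pulsed arrays and 1275 and 1973 on the WT N4 arrays, with 1452 and 2646 in the PKCθ KO and 1343 and 1280 in the double knockout. The non-pulsed arrays were the highest, and the 3 peptide groups lay together. It fell by 1.21 in wild-type cells with N4 (SE 0.29, 95% interval -1.87 to -0.55, 2.31-fold, limma adjusted p = 0.00995). The call was lost with each array centred on its median (-0.81, limma adjusted p = 0.0581), without the first WT N4 array (-0.90, 0.066) and without the second non-pulsed array (-1.11, 0.0555).

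Ifngr2, the signalling chain, read 765 and 1092 on the non-pulsed arrays, 169 and 277 on the WT N4 arrays, 166 and 396 in the PKCθ KO and 125 and 182 in the double knockout. Again the non-pulsed arrays stood apart and the peptide groups overlapped. It fell by 2.00 in wild-type cells (SE 0.41, 95% interval -2.93 to -1.07, 4.0-fold, limma adjusted p = 0.00478). Its other probe set was dimmer and fell less, from 192 and 257 to 117 and 142 (-0.71, limma adjusted p = 0.156 in a fit of all probe sets). Neither receptor gene differed between genotypes under N4 beyond the spread between arrays. Ifngr1 was 0.30 higher in the PKCθ KO than in WT N4 cells (95% interval -0.36 to 0.96) and 0.27 lower in the double knockout (-0.93 to 0.39). For Ifngr2 these differences were 0.23 (-0.70 to 1.17) and -0.48 (-1.41 to 0.46).

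The IL-12 receptor genes rose with Ifng. Il12rb1, the chain shared by the IL-12 and IL-23 receptors, read 84.4 and 150 on the non-pulsed arrays and 1467 and 1317 on the WT N4 arrays, with 1185 and 1149 in the PKCθ KO and 1516 and 1347 in the double knockout. All peptide arrays lay within a narrow band far above the non-pulsed ones. The rise in wild-type cells was 3.44 (SE 0.24, 95% interval 2.91 to 3.98, 10.9-fold, limma adjusted p = 3.36e-05), the 21st largest of the 12520 genes. Under N4 the knockouts differed from wild type by -0.25 (95% interval -0.79 to 0.29) and 0.04 (-0.50 to 0.58), for the PKCθ KO and the double knockout in turn.

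Il12rb2, the chain that carries the IL-12 signal to Stat4, read 34.4 and 70.8 on the non-pulsed arrays, 846 and 1540 on the WT N4 arrays, 794 and 982 in the PKCθ KO and 388 and 357 in the double knockout. The double knockout arrays were below every other peptide array and above both non-pulsed arrays. The rise in wild-type cells was 4.13 (SE 0.34, 95% interval 3.37 to 4.89, 17.5-fold, limma adjusted p = 5.7e-05), the 14th largest. In the double knockout the level was 1.58 below that of WT N4 cells, a 2.98-fold difference (SE 0.34, 95% interval -2.34 to -0.81), which did not pass the test over all genes (unadjusted p = 0.00126, limma adjusted p = 0.125). With the replicate number as a block it did pass (SE 0.24, limma adjusted p = 0.0191), though the labels do not say that the numbers pair the samples. Against the PKCθ KO it was 1.21 lower (95% interval -1.98 to -0.45, limma adjusted p = 0.328). The PKCθ KO differed from WT N4 cells by -0.37 (95% interval -1.13 to 0.40).

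Stat4 was already high without peptide and moved little. It read 2301 and 3019 on the non-pulsed arrays, 3760 and 3185 on the WT N4 arrays, 2616 and 2391 in the PKCθ KO and 3310 and 3028 in the double knockout. Both WT N4 arrays were above both non-pulsed arrays, but close to them. The difference of 0.39 (SE 0.17, 95% interval 0.01 to 0.77) did not pass the test (limma adjusted p = 0.0955), except without the second non-pulsed array (0.59, 0.0439). The PKCθ KO was 0.47 below WT N4 cells, with no overlap (95% interval -0.85 to -0.09, limma adjusted p = 1.00), and the double knockout 0.13 below (-0.51 to 0.25). No 2 neighbours in the order of the 4 Stat4 means differed beyond their spread.

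Of the IL-18 receptor, the binding chain Il18r1 had the largest fall of the 8 genes. It read 1844 and 1088 on the non-pulsed arrays, 117 and 49.1 on the WT N4 arrays, 270 and 173 in the PKCθ KO and 123 and 142 in the double knockout. The non-pulsed arrays were the highest and the WT N4 arrays the lowest, below all 4 knockout arrays. It fell by 3.94 in wild-type cells (SE 0.39, 95% interval -4.84 to -3.05, 15.4-fold, limma adjusted p = 0.000136). Under N4 it was 1.32 higher in the PKCθ KO than in wild type, a 2.50-fold difference (SE 0.39, 95% interval 0.43 to 2.21, limma adjusted p = 1.00), and 0.67 higher in the double knockout (-0.22 to 1.56). Neither passed the test over all genes. Of the B cell markers all 12 measured had a positive difference in the PKCθ KO (median 0.65, from 0.15 to 1.53). In the double knockout 8 of 12 had (median 0.45, from -0.28 to 1.97), and none of the markers passed. In each comparison 5 were without overlap, as were 25.8% of all genes for the PKCθ KO and 30.5% for the double knockout. The part of B cells in the Il18r1 differences was not tested.

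Il18rap, the accessory chain needed for the IL-18 signal, read 292 and 359 on the non-pulsed arrays, 210 and 173.5 on the WT N4 arrays, 391 and 411 in the PKCθ KO and 309 and 315 in the double knockout. Here the WT N4 arrays alone were low, and the knockout arrays read as high as the non-pulsed ones. The fall in wild-type cells was 0.71 (SE 0.20, 95% interval -1.17 to -0.25, 1.64-fold, limma adjusted p = 0.0212). The call was lost with quantile normalization (-0.31, limma adjusted p = 0.30), with median centring (-0.31, 0.466), with the mean of the probe sets (-0.57, 0.0731), with the arrays of the 2 groups alone (0.0649), without the second non-pulsed array (0.13) and without the second WT N4 array (0.109). The other probe set read 75.4 and 120 on the non-pulsed and 66.0 and 67.8 on the WT N4 arrays (-0.43, limma adjusted p = 0.34). Il18rap was 1.01 higher in the PKCθ KO than in WT N4 cells, a 2.01-fold difference (SE 0.20, 95% interval 0.55 to 1.47), and 0.66 higher in the double knockout (0.20 to 1.12), without passing the test over all genes (limma adjusted p = 0.446 and 0.365). The other probe set differed in the same direction, by 1.30 and 0.90.

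**Figure D2:**
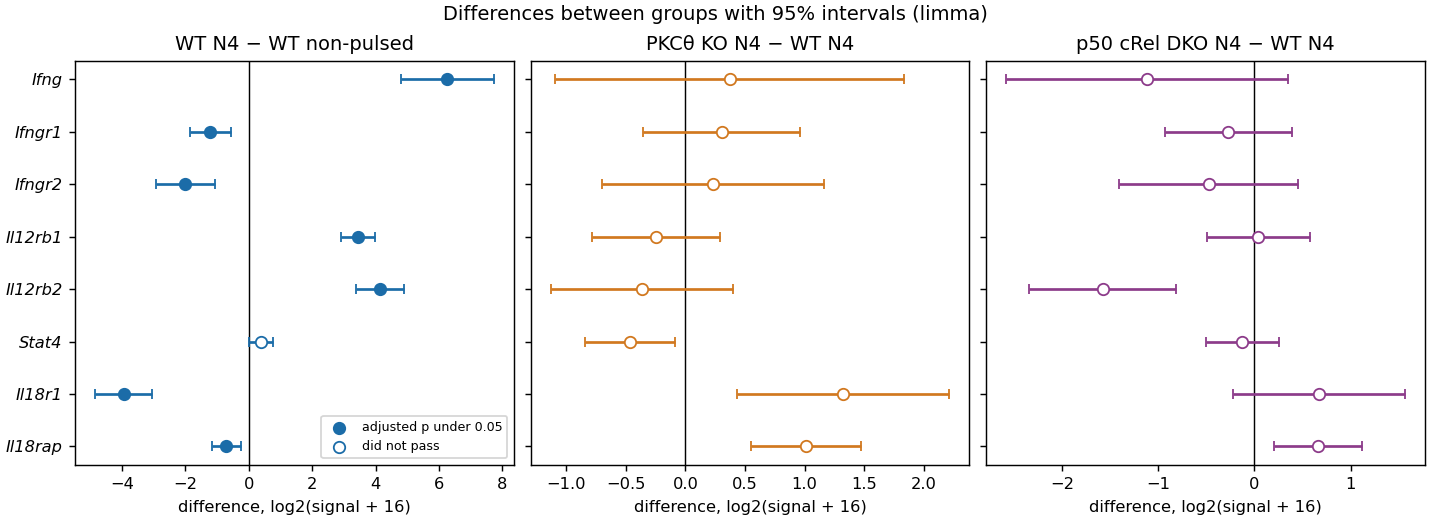
Difference in log2(signal + 16) of each of the 8 genes (y axis) with 95% intervals from the fit over all 8 arrays, for WT N4 against WT non-pulsed cells and each knockout against WT N4 cells, with filled points where limma's adjusted p was under 0.05 and a separate x scale in each panel. The differences of WT N4 from WT non-pulsed cells run from -3.94 for Il18r1 to 6.26 for Ifng, while those between genotypes under N4 lie between -1.58 and 1.32.

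In all, 3 of the 8 genes rose (Ifng, Il12rb1, Il12rb2), 4 fell (Ifngr1, Ifngr2, Il18r1, Il18rap) and Stat4 did not pass in wild-type cells given N4, where 40.7% of all genes passed, 17.2% upwards and 23.5% downwards. The groups of arrays did not overlap for any of the 8, which held for 68.4% of all genes. The median difference was -0.16 for the 8 genes and -0.10 for all genes. Between PKCθ KO and WT N4 cells none of the 8 passed limma's test (0.024% of all genes did). An unadjusted p under 0.05 was found for 3 (Il18r1, Il18rap and Stat4) and for 371 of all 12520 genes. Between double knockout and WT N4 cells none passed (0.519% of all genes). There 2 had an unadjusted p under 0.05 (Il12rb2 and Il18rap), as had 788 of all genes. Between the knockouts none passed (0.431%), and 2 had such a p (Ifng and Il12rb2), as had 897 of all genes. In these 3 comparisons the groups did not overlap for 4, 4 and 7 of the 8 genes, and for 25.8%, 30.5% and 33.9% of all genes. The first 2 share the WT N4 arrays.

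Set against WT non-pulsed cells, which differ in genotype and peptide at once, the knockouts gave 3 rises and 3 falls each, of the same 6 genes, where 40.6% of all genes passed for the PKCθ KO (16.5% higher, 24% lower) and 39.3% for the double knockout (16.5% and 22.8%). These 2 comparisons and that of WT N4 cells share the non-pulsed arrays. Ifng was higher by 6.63 in the PKCθ KO (limma adjusted p = 0.000134) and by 5.14 in the double knockout (0.000429). For Il12rb2 the values were 3.76 (9.19e-05) and 2.55 (0.000551), and for Il12rb1 3.19 (4.4e-05) and 3.48 (3.55e-05). Il18r1 was lower by -2.62 (0.00102) and -3.27 (0.000347), Ifngr2 by -1.77 (0.00861) and -2.48 (0.00174) and Ifngr1 by -0.91 (0.0341) and -1.48 (0.00392). The other Ifngr2 probe set differed by -0.22 and -0.56 and did not pass (limma adjusted p = 0.676 and 0.263 in a fit of all probe sets). In the PKCθ KO the Ifngr1 call held in 11 of 18 alternatives (-0.50 with median centring, limma adjusted p = 0.225, and -0.48 without the first PKCθ KO array, 0.205). That of Ifngr2 was lost with the mean of its probe sets (-0.99, 0.0597) and without the second non-pulsed array (-1.51, 0.0576). Il18rap differed by 0.30 (0.285) and -0.05 (0.871), and Stat4 by -0.08 (0.76) and 0.26 (0.254), without passing, but with quantile normalization Il18rap in the PKCθ KO was 0.72 higher and passed (0.0285).

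B cell, myeloid and neutrophil markers moved with the falls of Il18r1, Ifngr1 and Ifngr2. From non-pulsed to WT N4 arrays, all 12 B cell markers fell (median -4.34), so did 13 of the 17 markers of dendritic cells and macrophages, with no rise (median -2.49), and all 7 neutrophil markers fell (median -4.76). Of 6 markers of NK cells and innate lymphocytes measured (of 11), Cd160 rose, while Tyrobp and Fcer1g fell, both of them genes that myeloid cells express too. The 6 summed to 11950 and 18151 on the non-pulsed arrays and 1841 to 3261 on the peptide arrays. Of 4 CD4 T cell markers measured (of 6) 1 rose and 1 fell. No marker of these 5 lists passed the test between knockout and WT N4 cells, comparisons in which few genes of any kind did. The 9 T cell markers measured (of 10) summed to 37298 and 41317 on the non-pulsed arrays and to between 54110 and 71759 on the peptide arrays. The part of these other cells in the falls of the receptor genes, and of the pathway genes described below, was not tested.

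**Figure D3:**
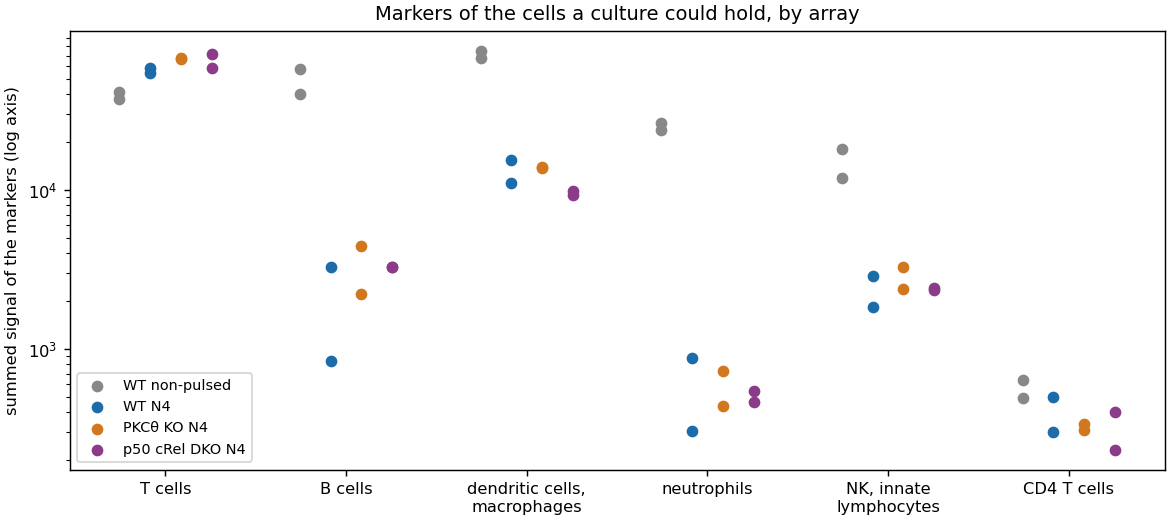
Summed signal of each marker list (x axis) on each array, on a log y axis, with 1 point per array coloured by group. B cell, myeloid, neutrophil and NK or innate lymphocyte sums are highest on the 2 non-pulsed arrays, and the T cell sum is lowest there.

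Likeness was measured as the root mean square difference between log2 levels over the 8 arrays after each gene's own mean was taken off. The genes most like Ifng were Gzmb (0.81), which encodes the granule protease granzyme B, Crabp2 (0.95) and Gpr25 (1.00). The nearest to Il12rb2 were Prelid2 (0.37), Lif (0.38), a cytokine gene, and Adh4 (0.43). Lif read 7.87 on average in non-pulsed cells, 12.00 in WT N4 cells, 11.31 in the PKCθ KO and 10.47 in the double knockout. That was the order of Il12rb2, and Adh4 had it too, while Prelid2 was highest in the PKCθ KO (11.34, against 11.27 in WT N4 cells). Genes chosen for their likeness share much of the order by that choice. The nearest to Il18r1 were Slamf9 (0.27), Tnfrsf13b (0.28) and Tnfrsf13c (0.30), of which the last 2 encode receptors known from B cells. Tnfrsf13c read 11.73 in non-pulsed cells and 7.93 in WT N4 cells. Among the 8 genes themselves the closest were Ifngr1 and Ifngr2 (0.43), then Il18rap and Stat4 (0.55), while Ifng and Il12rb2 were 1.31 apart. These values describe 8 arrays and 4 groups.

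Other genes of the IL-12 pathway moved in both directions in wild-type cells. Of 11 listed ligands, related receptors and kinases 9 were measured, of which 2 rose, 5 fell and 2 did not pass (median -0.60). Il12a, the p35 subunit of IL-12, fell by 2.08 (SE 0.41, limma adjusted p = 0.004). The kinase gene Tyk2 fell by 0.82 (SE 0.17, limma adjusted p = 0.00552), whereas Jak2 differed by 0.03 and did not pass (0.933). Il23a, the p19 subunit of IL-23, rose by 2.30 (SE 0.49, limma adjusted p = 0.00568). The other falls were Ebi3 (-2.80), Il6st (-0.95) and Il27ra (-0.60), and the other rise was Stat3 (0.44), whose other probe sets read -0.30 and -0.54. With median centring the counts were 1 up and 2 down, and with quantile normalization 1 and 3. Tyk2 did not pass with median centring (-0.42, limma adjusted p = 0.349), and Il6st, Il27ra and Stat3 passed with neither scaling.

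Of 24 listed genes of the IL-18 and IL-1 receptor family and its signal 22 were measured, and 10 fell, 2 rose and 10 did not pass (median -0.56). Irak3, an inhibitory member of the IRAK family, fell by 4.35, Irak2 fell by 2.01 and the cytokine gene Il33 fell by 4.09. Il18 itself fell by 2.15 (SE 0.37, limma adjusted p = 0.00212). The adaptor Myd88 differed by 0.20 and did not pass (limma adjusted p = 0.478). The rises were Map2k3 (0.87) and Map3k7 (0.92), kinases below the receptor, of which Map3k7 had another probe set at -0.31. With median centring 6 fell and 2 rose.

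Of 25 transcription factors known to act on Ifng 23 were measured, and 4 rose, 7 fell and 12 did not pass in wild-type cells with N4 (median -0.28, but 0.12 with median centring, where 4 rose and 5 fell). Tbx21, which encodes T-bet, the factor that drives Ifng in type 1 cells, rose by 2.61 (SE 0.27, limma adjusted p = 0.000156), and Bhlhe40, Fosl2 and Irf4 rose by 1.13, 1.79 and 1.54. The repressor gene Bcl6 fell by 3.11, and Prdm1 fell by 2.82. Eomes, the relative of Tbx21, differed by -0.24 and did not pass (limma adjusted p = 0.769).

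Of 15 listed genes of the interferon gamma receptor signal and its feedback 14 were measured, and 3 rose, 4 fell and 7 did not pass (median 0.06, but -0.03 with quantile normalization). Jak1, the kinase bound to Ifngr1, fell by 1.01, Irf2 fell by 1.79 and Pias1 fell by 1.10, while Cish rose by 2.61. With median centring 3 rose and 2 fell, and Jak1 (-0.61, limma adjusted p = 0.131) and Pias1 (-0.70, 0.0965) did not pass. Socs1, a feedback inhibitor of the receptor, differed by 0.58 and did not pass (limma adjusted p = 0.124). Of 28 listed targets of interferon gamma 23 were measured, and 1 rose (Igtp, a GTPase, by 0.99), 6 fell and 16 did not pass, where 17.2% of all genes rose and 23.5% fell. The median was -0.18, but 0.22 with median centring, where 1 rose and 2 fell. Cd274, which encodes PD-L1, fell by 1.62, Ciita, the activator of MHC class II genes, fell by 2.67, and the peptide transporter gene Tap2 fell by 0.79, the last not with median centring (-0.39, limma adjusted p = 0.343).

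Of 17 listed type 1 effector genes 14 were measured, and 5 rose, 3 fell and 6 did not pass (median 0.99). Il21 rose by 6.59, Gzmb by 5.35, Xcl1 by 2.67, Prf1, the pore-forming protein of killing, by 2.54 (0.57 in its other probe set) and Fasl by 2.25. Il10 fell by 3.94, Ccl5 fell by 1.75 and Tnf fell by 1.72. The members of the lists were chosen with results of these data known, so their counts describe them and support nothing further.

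**Figure D4:**
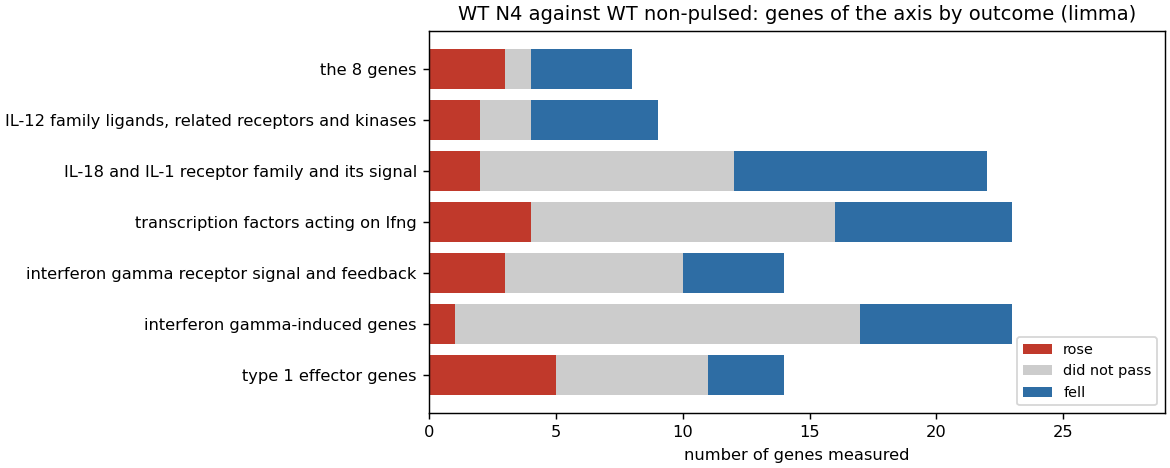
Number of measured genes (x axis) among the 8 genes and in each pathway list that rose, fell or did not pass limma's test at an adjusted p of 0.05 between WT N4 and WT non-pulsed cells. Falls outnumber rises in 5 of the 6 lists (in 4 with median centring, where the interferon gamma receptor signal has 3 rises and 2 falls), and the effector genes have 5 rises and 3 falls. Among all genes 23.5% fell and 17.2% rose, and with median centring 61.1% of the genes called were higher.

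None of the 105 measured entries of the 6 pathway lists passed for the PKCθ KO against WT N4 cells (0.024% of all genes did). Jak2, in the IL-12 list and that of the interferon gamma receptor signal, is counted in both. In that comparison the list medians lay between -0.03 and 0.17 against -0.02 for all genes. Tbx21 differed by 0.04 there and by 0.13 in the double knockout. For the double knockout against WT N4 cells 2 of the 105 passed, where 0.519% of all genes did. Bhlhe40, a factor that promotes Ifng expression, read 5436 and 6779 on the WT N4 arrays, 5252 and 5398 in the PKCθ KO, 2581 and 2470 in the double knockout and 2382 and 3215 on the non-pulsed arrays. The double knockout arrays were at the level of the non-pulsed ones (difference -0.13, limma adjusted p = 0.591). They were 1.26 below WT N4 cells (12.57 against 11.31, SE 0.17, limma adjusted p = 0.0206, but 0.114 with median centring) and 1.07 below the PKCθ KO (0.0453, but 0.0995 with quantile normalization).

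Prf1 read 1158 and 1092 on the WT N4 arrays, 2426 and 2223 in the PKCθ KO, 5310 and 5772 in the double knockout and 145 and 222 on the non-pulsed arrays. The groups did not overlap, and the double knockout was the highest. It exceeded WT N4 cells by 2.28 (SE 0.20, limma adjusted p = 0.00253) and the PKCθ KO by 1.25 (0.041), but by 0.10 and 0.21 in the other Prf1 probe set. Jak2, the IL-12 receptor kinase, was 1.07 lower in the double knockout than in WT N4 cells (limma adjusted p = 0.0924), Il23a 2.34 lower (0.116) and Il21 2.57 lower (0.126), and none of these passed. With median centring Il23a (-2.35, limma adjusted p = 0.0191) and Il21 (-2.58, 0.0319) passed, and with quantile normalization Il23a did (-2.41, 0.0443). Of the IL-18 and IL-1 receptor list the lowest p-values were those of Il1r1 (-2.78), Gadd45g (-1.09) and Gadd45b (-0.68). Of the genes of the interferon gamma signal they included Irf2 (0.64) and Socs3 (-1.05), and of its targets Tap2 (0.34), Gbp7 (0.45) and Gbp3 (0.55).

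Genes next to Ifng on chromosome 10 were read for comparison. Dyrk2, on 1 side, fell by 1.38 in wild-type cells with N4 (limma adjusted p = 0.00198) and Cand1 rose by 0.58 (0.0117), against a rise of 6.26 for Ifng, and neither passed in a knockout against WT N4 cells. The genes on the other side, Il22 and Iltifb, were not analysed here. Next to Il18r1 and Il18rap on chromosome 1, Il1rl2 fell by 1.07 (limma adjusted p = 0.007), but did not pass with median centring (-0.67, 0.0916). Nabp1, next to Stat4, rose by 1.48 (limma adjusted p = 0.00125).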

How the data were processed

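The deposited values are intensity values, 1 linear signal per probe set, which per the submitters' processing notes came from MAS5 in GCOS 1.4, from 100 ng of RNA per the labels' protocols. In the values every array had a 2% trimmed mean of 500. Groups were taken from the sample titles, and an array without a replicate number was called the first of its group. The 45101 probe sets included 64 controls, which were not used. The platform annotation named the genes: 34945 probe sets had 1 symbol, 932 several and 9160 none. Symbols were updated by Entrez identifier for 34741. Tests used log2(signal + 16). Probe sets with a mean under the 40th percentile (5.38) were left out (27022 kept), and the probe set with the highest mean stood for its gene. A model with 1 coefficient per group was fitted to all 8 arrays with limma 3.58.1 in R 4.3.3 (lmFit, eBayes with trend, 4 residual degrees of freedom), tested on simulated data, and a gene was called at a p under 0.05 after Benjamini-Hochberg adjustment over the 12520 genes.

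The 8 genes and the lists were chosen with earlier results of these data known. The text names the 8 genes in every comparison, up to 3 genes of each list with the lowest p, the 3 genes most like Ifng, Il12rb2 and Il18r1, and the 2 nearest genes on either side of Ifng, Il18r1 with Il18rap, and Stat4. Rel, Prkcq, the marker and sex-linked genes, Jak2, Myd88, Eomes, Socs1, Tbx21 in the knockouts, and the remaining members of short counts were named after their values were seen. The alternatives were another filter, pseudocount or scaling, the mean of a gene's probe sets, the arrays of 2 groups alone, no trend, the replicate number as a block, and each array left out.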

Additional observations from a re-analysis of the deposited data

Results flagged for a closer look

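Of the pathway and marker genes, 3 differed between genotypes under N4 by limma's test over all genes, and were singled out for that reason. Bhlhe40, a transcription factor that promotes Ifng expression, was lower in the double knockout by -1.26 against WT N4 cells and by -1.07 against PKCθ KO cells, past the threshold in 13 and 8 of 18 alternatives. Cd2, an adhesion receptor of T cells, was lower by -0.98 and -1.03, past it in 12 and 12. It read 3794 and 3671 on the WT N4 arrays and 2061 and 1718 on the double knockout arrays. Prf1, which encodes perforin, was higher by 2.28 and 1.25, past it in 17 and 7, on 1 of its 2 probe sets.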

How the results depend on the processing

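Median centring left 5 of the 7 calls between WT N4 and WT non-pulsed cells. In 18 alternatives per comparison, 825 of 864 values of the 8 genes kept their direction and side of the threshold. Ifng, Ifngr2, Il12rb1, Il12rb2 and Il18r1 passed in all 18 for WT N4 against WT non-pulsed cells. With single arrays left out, 6 to 7 of the 8 genes changed in that comparison, 4 to 6 in the PKCθ KO and 6 in the double knockout against WT non-pulsed cells, and 0 between genotypes under N4. Without the double knockout's first array its changed genes against WT non-pulsed cells went from 4917 to 3245. Same-numbered arrays deviated together (r of deviations 0.25 to 0.58 over 6 pairs of groups). In each group the median signal was also lower on the first array (for WT N4, 33.6 against 52.5). Whether the numbers pair the samples was not tested. With the replicate block, 1 of the 8 genes differed between the double knockout and WT N4 cells (Il12rb2, limma adjusted p = 0.0191), and all genes called went from 65 to 200, and from 54 to 152 between the knockouts. The block changed no other count of the 8 genes. With the arrays of the 2 knockouts alone, 2 of the 8 differed between them (Ifng, 0.0408, and Il12rb2, 0.0328). The cause was not tested.

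Median centring moved the median of all genes from -0.10 to 0.30 between WT N4 and WT non-pulsed cells (quantile normalization to 0.09), and the higher genes among those changed from 42.3% to 61.1% (52.6%). All genes called for the PKCθ KO against WT N4 cells were 3, and 0 to 5 in the alternatives. For the double knockout they were 65, but 36 with median centring, 35 without a trend and 13 to 75 with arrays left out. Between the knockouts they were 54, but 28 without a filter, 98 from 2 groups, 17 without a trend and 0 to 65 with arrays left out.

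No value that reversed had passed the test. With single arrays left out, the PKCθ KO minus WT N4 difference of Ifng ran from -0.13 to 0.87 (also -0.12), that of Ifngr1 from -0.13 to 0.73 (also -0.0088), that of Ifngr2 from -0.36 to 0.82 (also -0.098) and that of Il12rb2 from -0.79 to 0.060. The double knockout minus WT N4 difference of Ifngr1 ran from -0.58 to 0.040 and that of Il12rb1 from -0.045 to 0.12 (also -0.038). Against WT non-pulsed cells, Stat4 in the PKCθ KO ran from -0.27 to 0.12, and was 0.33 with median centring. Il18rap in the double knockout ran from -0.19 to 0.090, and was 0.34 with either other scaling and 0.21 with the mean of probe sets.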

Other observations

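Gzmb, which encodes granzyme B and was the gene most like Ifng over the 8 arrays, read 157 and 934 on the non-pulsed arrays and 17702 and 15336 on the WT N4 arrays. It read 17498 and 13496 in the PKCθ KO and 24271 and 17780 in the double knockout, where the values were as high as in WT N4 cells. In both genes the non-pulsed arrays differed, the second reading higher than the first.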
